A study of Mus musculus with 6 samples.

Results

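Heavy chain clonotypes to which no D segment had been assigned were found in both heavy chain libraries of the study. A clonotype is a distinct CDR3 nucleotide sequence with its best V, D, J and C gene. Members were selected on 1 measured value, an empty D hit in the deposited table of heavy chain clonotypes, and they were set against the clonotypes of the same library that had a D hit. They numbered 1007 of 7794 heavy clonotypes in the iB library and 833 of 6781 in the B6 library, 1840 of 14575 in all. Both libraries came from naïve follicular (FO) B cells sorted from the spleen as IgD++, IgM+, CD23++ and CD21+ cells lacking lineage markers of other blood cells and CD138. The iB library was made from 1 iB-μMT mouse. This was a sublethally irradiated μMT mouse, a strain whose own B cell development stops early, at week 4 after it had received hematopoietic progenitors (iHPCs) from iR9X2 embryonic stem cells. These stem cells are of C57BL/6 background, are GFP-transgenic and carry doxycycline-inducible Runx1, Hoxa9 and Lhx2 in the Rosa26 locus, and the recipient drank doxycycline. The B6 library was made from 1 C57BL/6 mouse that the labels call WT. With 1 library per group, every comparison between them is a comparison of 2 libraries and not of 2 conditions, and p-values and intervals cover the counting of clonotypes only.

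The variable exon of an immunoglobulin heavy chain is cut together from a V, a D and a J segment by the RAG recombinase. Exonucleases trim the segment ends, and terminal deoxynucleotidyl transferase (TdT) adds bases that no segment encodes, so the CDR3 in the middle of the joint holds the tail of V, whatever is left of D, added bases and the head of J. Light chains have no D segment. A D segment is short, and a D that was trimmed to a few bases or that resembles the head of J is hard to name from the sequence. A heavy clonotype with no D hit is therefore an assignment left blank by the alignment software and not a statement that no D was used.

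The heavy chain locus is on mouse chromosome 12. In RefSeq's annotation of GRCm38.p6, the assembly of the mm10 build named in the labels, IGHJ1 lies at chr12:113429781-113429833, IGHJ2 at chr12:113429468-113429515, IGHJ3 at chr12:113429085-113429132 and IGHJ4 at chr12:113428514-113428567. The D segments that matter most below are IGHD1-1 at chr12:113482170-113482192, IGHD2-5 at chr12:113466027-113466043 and IGHD2-8 at chr12:113450851-113450867. No genome sequence was used, so the D segments and the CDR3 part of the J genes were rebuilt from the deposited alignments that hold no mismatch. Of 19 named D segments, 16 could be rebuilt whole, and the 10 found in RefSeq had the annotated length in 10 of 10 cases. IGHD2-5 and IGHD2-6 came out identical and cannot be told apart. The following segments are shown whole, as far as CDR3 reaches, because the members below are read against them.
IGHD1-1: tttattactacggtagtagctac
IGHD2-5: cctactatagtaactac
IGHD2-8: tctactatggtaactac
IGHD2-4: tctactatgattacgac
IGHJ1: ctactggtacttcgatgtctgg
IGHJ2: actactttgactactgg
IGHJ3: cctggtttgcttactgg
IGHJ4: attactatgctatggactactgg

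The most-read members are shown to make the V-to-J gap visible. Each is a whole CDR3 from the conserved cysteine codon to the conserved tryptophan codon, and the capitals mark the V-to-J gap, the bases that the deposited alignments gave neither to V nor to J. For each library the last of the lines is a clonotype with a D hit and the V and J of the first, for comparison.
iB, IGHV3-6 and IGHJ3: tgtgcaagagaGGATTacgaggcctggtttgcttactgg
iB, IGHV1-82 and IGHJ2: tgtgcaagaGGGGactttgactactgg
iB, IGHV3-6 and IGHJ4: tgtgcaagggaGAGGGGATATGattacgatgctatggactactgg
iB, IGHV3-6 and IGHJ3 with IGHD2-4: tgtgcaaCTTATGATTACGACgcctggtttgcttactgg
B6, IGHV1-53 and IGHJ4: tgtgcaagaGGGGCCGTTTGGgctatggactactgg
B6, IGHV1-54 and IGHJ4: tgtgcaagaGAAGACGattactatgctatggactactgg
B6, IGHV1-81 and IGHJ3: tgtgcaagaGAGGggtttgcttactgg
B6, IGHV1-53 and IGHJ4 with IGHD2-7: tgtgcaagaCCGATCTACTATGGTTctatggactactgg
The 3 iB members had 705, 600 and 567 reads and gaps of 5, 4 and 11 nucleotides, against 517 reads and a gap of 14 for the clonotype with IGHD2-4. The 3 B6 members had 944, 873 and 850 reads and gaps of 12, 7 and 4 nucleotides, against 511 reads and a gap of 16 for the clonotype with IGHD2-7.

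Members were read about as often as other clonotypes and were nearly all IgM. They held 124939 of the 909806 reads of the iB library (13.7%) and 178609 of the 1383617 reads of the B6 library (12.9%). Without a D hit, the median was 106 reads per clonotype (quartiles 55 and 168.5) in the iB library and 196 (quartiles 66 and 321) in the B6 library. With a D hit, the medians were 94 and 183 reads. Single-read clonotypes made up 3.18% of members in the iB library and 2.76% in the B6 library, against 3.60% and 4.15% of the clonotypes with a D hit. The C gene was IGHM, which encodes the μ chain of IgM, in 985 of 1007 members of the iB library and in 822 of 833 of the B6 library. One B6 member had IGHG1, and the C hit was missing in 22 and 10 members. The share with a missing C hit differed from that of clonotypes with a D hit by 0.39 percentage points in the iB library (95% Newcombe interval -0.43 to 1.53) and by -0.19 in the B6 library (-0.83 to 0.84). Neither passed Fisher's exact test (two-sided, adjusted p = 0.752 in both). Every CDR3 in both tables was in frame. A stop codon was present in 5 members of the iB library (0.497%) and 15 of the B6 library (1.80%), against 0.707% and 2.27% of the clonotypes with a D hit. These differences, -0.21 percentage points (-0.58 to 0.47) and -0.47 (-1.29 to 0.73), did not pass the same exact test either (adjusted p = 0.543 in both).

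The share of heavy clonotypes without a D hit was 12.9% in the iB library (95% Wilson interval 12.2 to 13.7) and 12.3% in the B6 library (11.5 to 13.1). The difference, iB minus B6, was 0.64 percentage points (95% interval -0.45 to 1.71), and it missed the threshold of the exact test (p = 0.25). The value depended on what counts as a D, as described below. It also depended on clonotypes that may be copies of others. When each clonotype that lay 1 mismatch from another with the same V, J and CDR3 length and 10 times its reads or more was folded into that other, 112 of 833 B6 members (13.4%) disappeared but 17 of 1007 iB members (1.69%), and the difference became 1.57 percentage points (0.49 to 2.64, exact p = 0.0047). Among B6 clonotypes with a D hit, 4.64% were folded. The folded B6 members had a median of 7.5 reads, and they held 0.532% of the reads of all B6 members.

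The V-to-J gap of members was short in both libraries, and since a D hit needs room between V and J, the gap is a description of the rule and not a finding. In the iB library the gap of members ran from -7 to 16 nucleotides with a median of 5 and a mean of 4.62 (SD 3.40, n = 1007), against a mean of 14.9 (SD 5.31, n = 6787) with a D hit. In the B6 library it ran from -8 to 23 with a median of 6 and a mean of 6.37 (SD 4.15, n = 833), against 17.4 (SD 6.08, n = 5948). A negative gap means that the V and J alignments overlapped, which was the case in 70 iB members and 31 B6 members. The smallest gap with a D hit was 5 nucleotides in both libraries, and the lowest D alignment score was 25, at a score of 5 per matching base. Just inside the rule, 106 iB members and 103 B6 members had a gap of 5. Just outside it, 576 iB clonotypes and 531 B6 clonotypes carried a D hit of the lowest score, with mean gaps of 8.79 and 10.3 nucleotides.

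At the same gap, a missing D hit was more frequent in the B6 library. At 5 nucleotides, 63.1% of iB clonotypes (55.6 to 70.0, n = 168) and 76.9% of B6 clonotypes (69.0 to 83.2, n = 134) had no D hit. At 7 nucleotides the shares were 32.2% (27.4 to 37.5, n = 326) and 43.6% (36.2 to 51.2, n = 163), and at 9 nucleotides 11.9% (9.24 to 15.3, n = 444) and 23.8% (18.9 to 29.6, n = 239). At 10 or more nucleotides 0.991% of iB clonotypes (0.766 to 1.28) and 2.87% of B6 clonotypes (2.46 to 3.33) had none. Over all gaps, with the libraries given the same distribution of gaps, the difference turned to -4.22 percentage points, iB minus B6. The gap itself was shorter in the iB library, with 48.2% of iB members (45.1 to 51.3) but 32.4% of B6 members (29.3 to 35.7) below 5 nucleotides, where no clonotype of either library had a D hit.

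**Figure D1:**
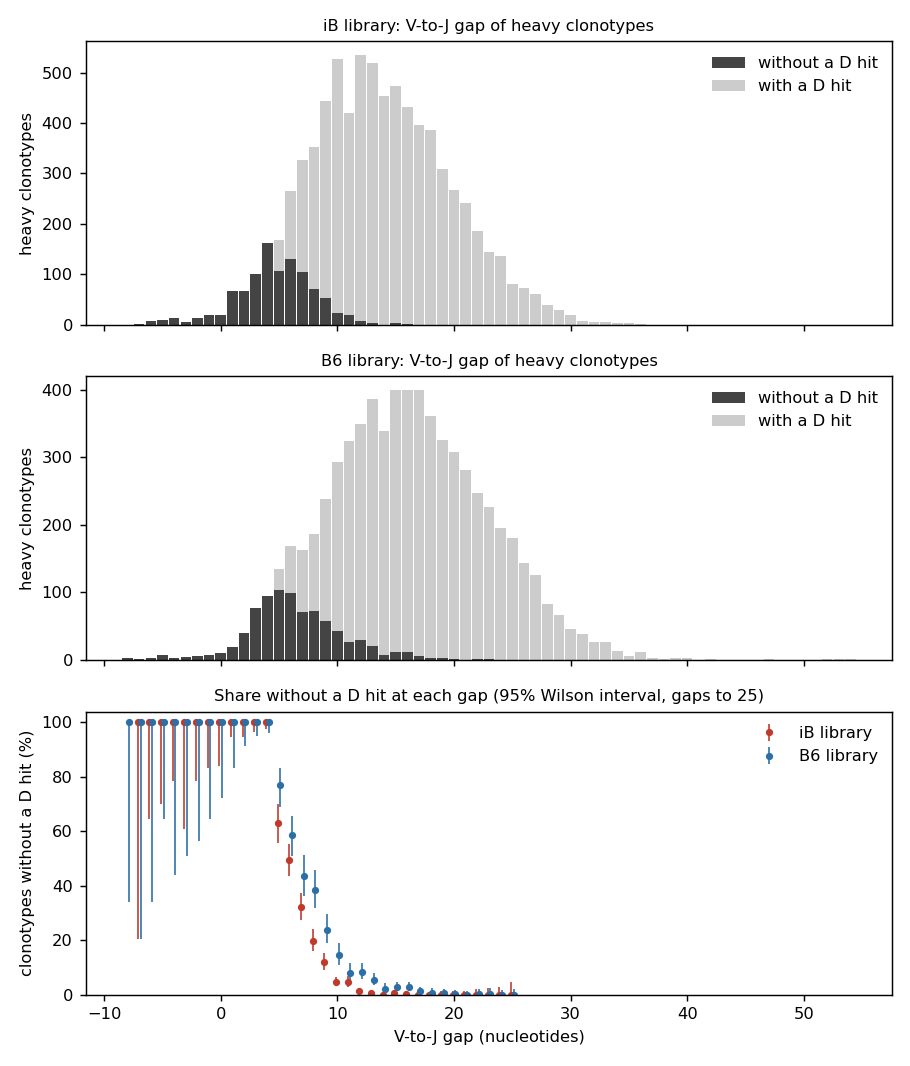
The upper panels show the number of heavy clonotypes (vertical axis) at each V-to-J gap in nucleotides (horizontal axis) for each library, with members in dark bars and clonotypes with a D hit stacked in light bars. The lowest panel shows the share without a D hit in percent at each gap up to 25 nucleotides, with 95% Wilson intervals. It is 100% below a gap of 5 in both libraries, and at a gap of 9 it is 11.9% in the iB library and 23.8% in the B6 library.

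The shortest and the longest gaps show what the class holds at its ends. The next lines give the most-read member of each library with a gap of 0, with no capitals because nothing lies between V and J, and the member with the largest gap, with the gap in capitals.
iB, gap 0, IGHV1-15 and IGHJ4: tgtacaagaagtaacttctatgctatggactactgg
B6, gap 0, IGHV1-82 and IGHJ1: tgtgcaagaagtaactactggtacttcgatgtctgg
iB, largest gap, IGHV1-64 and IGHJ2: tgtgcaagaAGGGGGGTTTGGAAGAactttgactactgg
B6, largest gap, IGHV9-3 and IGHJ4: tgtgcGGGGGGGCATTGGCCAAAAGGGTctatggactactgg
The gap 0 members had 264 and 377 reads. Neither of them is a plain V-J joint: the deposited J alignment ran 6 and 5 bases past the first base of the J gene, with a mismatch or an alignment gap in both. The members with gaps of 16 and 23 nucleotides had J alignments free of mismatches, and the longest stretch of any D segment in either was 4 bases.

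A J alignment that reached past the J gene was frequent among members. The reference positions before each J gene held the inverted copy of the head of J, in which the rebuilt letters matched at 5 of 5, 6 of 6, 7 of 7 and 3 of 3 positions for IGHJ1 to IGHJ4. Such letters allow for palindromic bases at a segment end. The J alignment started before the first base of J in 47.3% of iB members (44.2 to 50.4) and 29.4% of B6 members (26.4 to 32.6), against 27.9% and 23.4% of clonotypes with a D hit. It held a mismatch or an alignment gap in 43.7% of iB members (40.7 to 46.8) and 33.0% of B6 members (29.9 to 36.3), against 1285 of 6787 and 1190 of 5948 clonotypes with a D hit. These measures share the alignment with the D search and were not tested.

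D sequence was visible under many of these J alignments. For each member, the exact J match was taken as the longest perfect match of the CDR3 end to the rebuilt J gene, and the bases between the V end and this match were searched for the longest perfect run of any D segment. A run of at least 8 bases was found in 216 of 1007 iB members (21.4%, 19.0 to 24.1) and in 101 of 833 B6 members (12.1%, 10.1 to 14.5). The search with inverted D segments, which has the same lengths to choose from, gave 35 iB members (3.48%) and 12 B6 members (1.44%). Of the 216 and 101 members with a run, 207 and 96 had a mismatch or alignment gap in the deposited J alignment. In 216 of 216 and 101 of 101, bases of the run lay inside the interval given to J, with a median of 8 bases in both libraries. The overlap and the J mismatches go with the rule and the search, and are not findings. A run of 8 bases wholly outside J would have scored above the lowest D score, and the exact J match ends at the first mismatch. The members with the longest run in each library are shown next, with the D run in capitals.
iB, IGHV1-64 and IGHJ2: tgtgccTTTATTACTACGGTAgactactgg
B6, IGHV1-18 and IGHJ4: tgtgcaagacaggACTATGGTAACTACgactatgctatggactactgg
The first holds 15 bases of IGHD1-1 and had 88 reads. The second holds 14 bases of IGHD2-8 and had 131 reads. Their deposited gaps were 3 and 7 nucleotides, while 16 and 19 nucleotides lay between V and the exact J match. The most-read iB member above holds 8 bases of IGHD2-4 in the same way, and the iB member with 567 reads holds 10.

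**Figure D2:**
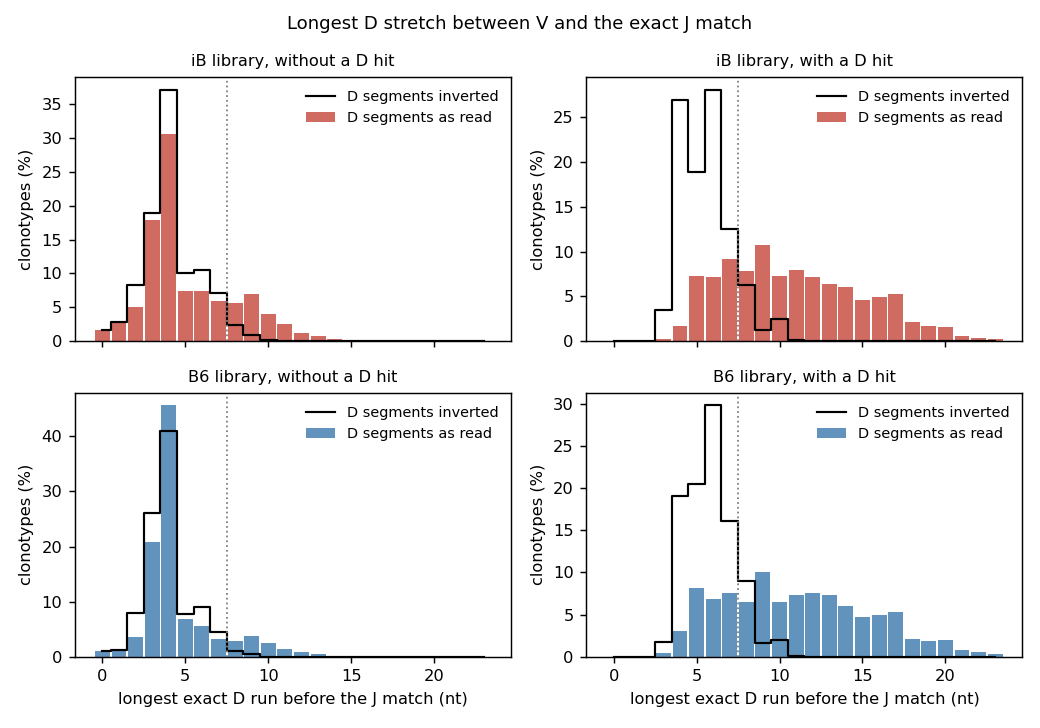
Share of clonotypes in percent (vertical axis) by the length in nucleotides of the longest exact D run between the V end and the exact J match (horizontal axis), for both libraries, without a D hit on the left and with a D hit on the right. Bars are D segments as read, the black line is the same search with inverted D segments, and the dotted line marks the limit of 8 bases. To the right of it lie 21.4% of iB members and 12.1% of B6 members, against 3.48% and 1.44% for inverted segments.

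The D segments seen in this way differed in order between the libraries. D use in the clonotypes with a D hit was not counted beside them, so the order cannot be read as particular to members. IGHD2-5 led in the iB library with 70 of 216 runs (32.4%), followed by IGHD1-1 with 45, IGHD2-3 and IGHD2-8 with 32 each and IGHD2-4 with 22. IGHD1-1, the longest of the rebuilt segments named here, led in the B6 library with 46 of 101 runs (45.5%), followed by IGHD2-5 with 17, IGHD2-3 with 15 and IGHD2-4 with 11. A run that matched several segments at equal length was counted for the first of them by name. IGHD2-5 and IGHD2-8, for example, share the 8 bases gtaactac, so the counts and their order depend in part on this choice. Read by J gene, a run was present in 29.9% of iB members with IGHJ4 (25.1 to 35.2), 20.3% with IGHJ1, 18.6% with IGHJ2 and 13.2% with IGHJ3 (8.97 to 19.1). In the B6 library the shares were 18.4% with IGHJ1, 14.5% with IGHJ4, 14.0% with IGHJ2 and 1.16% with IGHJ3 (0.318 to 4.12), which stood for 2 of 173 members.

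Some bases of a D run could equally be the first bases of J. The ends of several D segments resemble the heads of J genes: IGHD2-5 and IGHD2-8 end in actac, and IGHJ2 begins with it. A run that started at least 3 bases before the exact J match and was allowed to go on into it reached 8 bases in 369 iB members (36.6%, 33.7 to 39.7) and in 135 B6 members (16.2%, 13.9 to 18.9). These include the 216 and 101 members counted above, and 153 iB members (15.2%) and 34 B6 members (4.08%) reached 8 bases only by going on into J. Inverted D segments gave 78 (7.75%) and 35 (4.20%). The difference between the libraries was 20.4 percentage points (95% interval 16.5 to 24.3), given as a description because the measure is tied to the missing D hit. At least 3 bases common to the D run and the J match were found in 172 iB members (17.1%, 14.9 to 19.5) and 37 B6 members (4.44%, 3.24 to 6.06). The libraries also stood apart in this measure outside the members, at 14.9% (14.1 to 15.8) and 3.67% (3.22 to 4.17) of the clonotypes with a D hit. With inverted D segments, 3.48% of iB members and 2.28% of B6 members shared 3 bases or more. Inverted segments do not keep the D ends that resemble J heads. Neither inverted search into J therefore shows how often a run goes on into J by that likeness alone. The member of each library with most bases in common is shown next, with the D run in capitals.
iB, IGHV5-17 and IGHJ4: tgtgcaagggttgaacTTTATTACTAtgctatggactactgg
B6, IGHV5-12 and IGHJ4: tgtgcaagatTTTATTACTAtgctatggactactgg
Both runs are 10 bases of IGHD1-1, of which 7 are also IGHJ4, and the clonotypes had 17 and 92 reads. To which segment the common bases belonged cannot be told from the sequence.

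**Figure D3:**
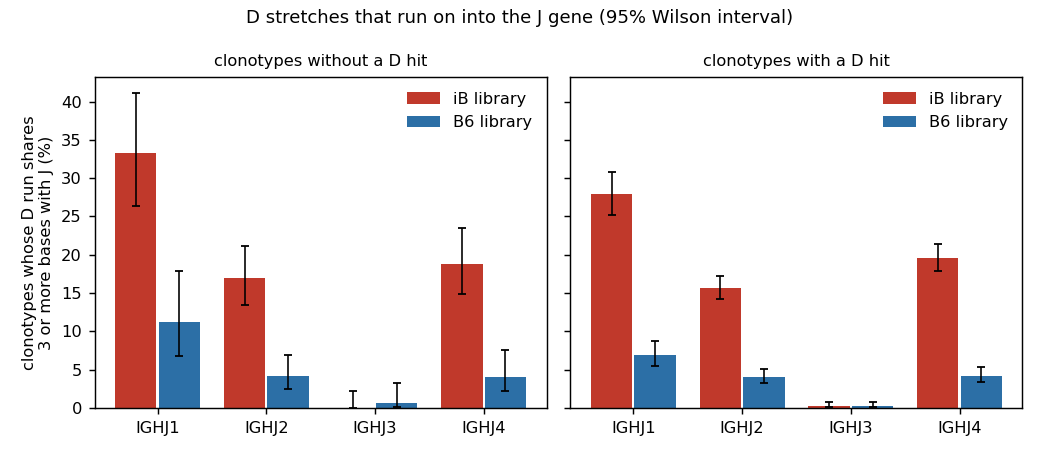
Share of clonotypes in percent (vertical axis) whose D run of 8 bases or more has 3 or more bases in common with the exact J match, by J gene (horizontal axis), for members on the left and clonotypes with a D hit on the right, with 95% Wilson intervals. With IGHJ1, IGHJ2 and IGHJ4 the iB bar is above the B6 bar in both panels, and with IGHJ3 no bar exceeds 0.578%.

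This sharing differed by J gene in members and in clonotypes with a D hit alike. Among members it was found in 33.3% of iB clonotypes with IGHJ1 (26.4 to 41.1), 16.9% with IGHJ2 (13.4 to 21.1) and 18.8% with IGHJ4 (14.9 to 23.5). The B6 values were 11.2% (6.79 to 17.9), 4.13% (2.43 to 6.93) and 4.09% (2.17 to 7.59). With IGHJ3, whose head is unlike the D ends, 0 of 174 iB members and 1 of 173 B6 members shared bases. The 0 of 174 allows a share of up to 1.72% (3 counts of the total), and its Wilson upper limit is 2.16%. With a D hit, the shares were 27.9%, 15.6% and 19.6% with IGHJ1, IGHJ2 and IGHJ4 in the iB library and 6.96%, 4.04% and 4.21% in the B6 library, so the order of J genes is not particular to members.

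Counting these D runs as a D changed the size of the class and the order of the libraries. Without the members that held a run before the J match, 791 iB clonotypes (10.1%, 9.50 to 10.8) and 732 B6 clonotypes (10.8%, 10.1 to 11.6) had no D, a difference of -0.65 percentage points (-1.65 to 0.35). Without those that held a run into J as well, 638 (8.19% of all) and 698 (10.3%) were left, a difference of -2.11 (-3.06 to -1.17). In the 638 and 698 members that were left, 6.31 nucleotides (SD 3.43) and 8.23 nucleotides (SD 4.16) on average lay between V and the exact J match, and 101 (15.8%) and 238 (34.1%) of them had 10 or more. V met J directly, with 0 or fewer nucleotides between them, in 16 iB members and 8 B6 members. The most-read of those with exactly 0 are shown in lower case only, since no base lies between V and J.
iB, IGHV14-4 and IGHJ3: tgtactacatttgcttactgg
B6, IGHV1-64 and IGHJ2: tgtgcaagatttgactactgg
They had 240 and 344 reads, and both J alignments were free of mismatches with 5 bases of J trimmed. In members without a run before J, G made up 42.2% of the 5325 bases between V and the exact J match in the iB library. In the B6 library it made up 44.9% of 6038 bases, with G and C together at 59.2% and 64.0%. These members were selected for lacking a D run of 8 bases before the exact J match. They include the 153 iB and 34 B6 members whose run reached 8 bases only by going on into J. Others hold shorter D runs, so the bases are not free of D sequence. Such bases of clonotypes with a D hit were not counted for comparison.

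CDR3 was shorter in members than in clonotypes with a D hit, which again goes with the rule. Members had 11.3 amino acids on average (SD 1.96, from 4 to 17) in the iB library and 10.8 (SD 2.10, from 6 to 18) in the B6 library, against 13.9 (SD 2.23) and 14.4 (SD 2.48) with a D hit. Of CDR3s with 9 or fewer amino acids, 55.6% of 351 in the iB library and 60.7% of 389 in the B6 library had no D hit, and of those with 13 or more, 5.33% and 3.82%. Members with a D run before the J match were longer (12.8 amino acids in the iB library and 12.6 in the B6 library) than members without one (10.9 and 10.6). At equal gap, which leaves out members with a gap below 5, the difference in length shrank to -0.15 amino acids in the iB library and -0.64 in the B6 library.

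The amino acids of CDR3 also stood at different shares in members and in clonotypes with a D hit. Tyrosine, which several D and J segments encode, made up 18.0% of the CDR3 residues of iB members and 14.6% of those of B6 members, against 19.9% and 17.7% with a D hit. Serine stood at 3.16% and 3.24% in members, against 4.66% and 5.69%. Glycine was present in 47.4% of iB and 55.7% of B6 member CDR3s, against 73.8% and 77.4% with a D hit. Residues that V and J supply at the ends of CDR3, such as tryptophan, alanine and arginine, took a larger share of the shorter CDR3s, with tryptophan at 11.7% and 11.3% against 9.98% and 9.11%. Asparagine went in opposite directions in the libraries. It made up 2.83% of residues in iB members and 2.08% with a D hit, but 1.17% and 1.55% in the B6 library. Residues of one CDR3 are not independent, and these shares were not tested.

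Each J gene was used by members, with IGHJ2 the most frequent. Of the 8 comparisons of J shares between members and clonotypes with a D hit (4 genes in 2 libraries), 2 passed Fisher's exact test after adjustment, 25% of those tested. IGHJ3 was used by 17.3% of iB members (15.1 to 19.7) and 23.6% of iB clonotypes with a D hit, a difference of -6.37 percentage points (-8.81 to -3.72, exact test, adjusted p = 3.5e-05). In the B6 library the IGHJ3 shares were 20.8% and 24.1%, a difference of -3.34 (-6.18 to -0.26) that did not pass (exact test, adjusted p = 0.066). IGHJ2 was used by 37.8% of B6 members (34.6 to 41.2) and 32.0% of B6 clonotypes with a D hit, a difference of 5.77 (2.33 to 9.31, exact test, adjusted p = 0.0042). In the iB library the IGHJ2 shares were 36.3% and 32.8%, a difference of 3.52 (0.39 to 6.73) that did not pass (exact test, adjusted p = 0.066). IGHJ1 and IGHJ4 differed by 1.11 and 1.74 percentage points in the iB library and by -1.67 and -0.76 in the B6 library, with intervals that include 0. Neither call was made once clonotypes of equal gap were compared, which leaves out members with a gap below 5, or once D runs into J were counted as a D. At equal gap the IGHJ3 difference in the iB library was -2.22 percentage points, while the IGHJ2 difference in the B6 library was 7.04, larger than over all gaps. With runs into J counted, the latter was 4.37. The IGHJ2 call in the B6 library also ended when near-identical clonotypes were folded (4.28, exact test, adjusted p = 0.059) and among clonotypes whose J alignment was free of mismatches (3.25, exact test, adjusted p = 0.327). The IGHJ2 difference in the iB library, in turn, passed with D runs before the J match counted as a D (4.89, exact test, adjusted p = 0.026), among J alignments free of mismatches (6.51, exact test, adjusted p = 0.0065) and with only D hits of score 40 or more counted (9.78, exact test, adjusted p = 2e-18). With D runs into J counted as a D, the IGHJ3 difference was 0.06 percentage points in the iB library and 0.73 in the B6 library. This setting is tied to the J gene. Among iB members, runs shared 3 or more bases with J in 33.3% with IGHJ1 but in 0 of 174 with IGHJ3. Runs before the J match differed by J gene as well. J shares and calls with D runs counted therefore cannot decide whether members used the J genes differently.

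Among IGHV families, the groups of V genes with similar sequence, 1 of 20 comparisons passed, 5% of those tested (10 families with at least 20 members over both libraries). IGHV8 made up 1.92% of B6 members (16 clonotypes) and 4.52% of B6 clonotypes with a D hit, a difference of -2.60 percentage points (-3.52 to -1.32, exact test, adjusted p = 0.004). In the iB library its shares were 2.18% (22 clonotypes) and 3.70%, a difference of -1.51 (-2.39 to -0.33) that did not pass (exact test, adjusted p = 0.065). With D runs before the J match counted as a D, the IGHV8 difference passed in both libraries, at -2.35 percentage points in the iB library and -3.18 in the B6 library (exact test, adjusted p = 0.0022 and 0.00017). With only D hits of score 40 or more counted, the B6 difference was -0.84 and did not pass (exact test, adjusted p = 0.544). IGHV10 stood the other way, at 3.97% of members and 2.77% with a D hit in the iB library and at 4.08% and 2.49% in the B6 library, without passing (exact test, adjusted p = 0.147 and 0.065). IGHV7 in the iB library (2.28% and 1.22%) and IGHV6 in the B6 library (3.84% and 2.35%) had intervals above 0 but did not pass either (exact test, adjusted p = 0.065 and 0.071). The largest families showed no difference that passed. IGHV1 made up 29.6% of iB and 56.7% of B6 members, against 29.8% and 59.7% with a D hit. IGHV5 was used by 302 of 1007 iB members and 121 of 833 B6 members (14.5%), against 31.9% and 12.6% with a D hit. At equal gap, however, the IGHV5 share of iB members was 11.2 percentage points above that of clonotypes with a D hit and passed the Mantel-Haenszel test, and that of B6 members was 5.40 above and passed as well. IGHV2, IGHV3, IGHV9 and IGHV14 differed by between -1.35 (iB IGHV9) and 1.24 (iB IGHV3) percentage points and did not pass.

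**Figure D4:**
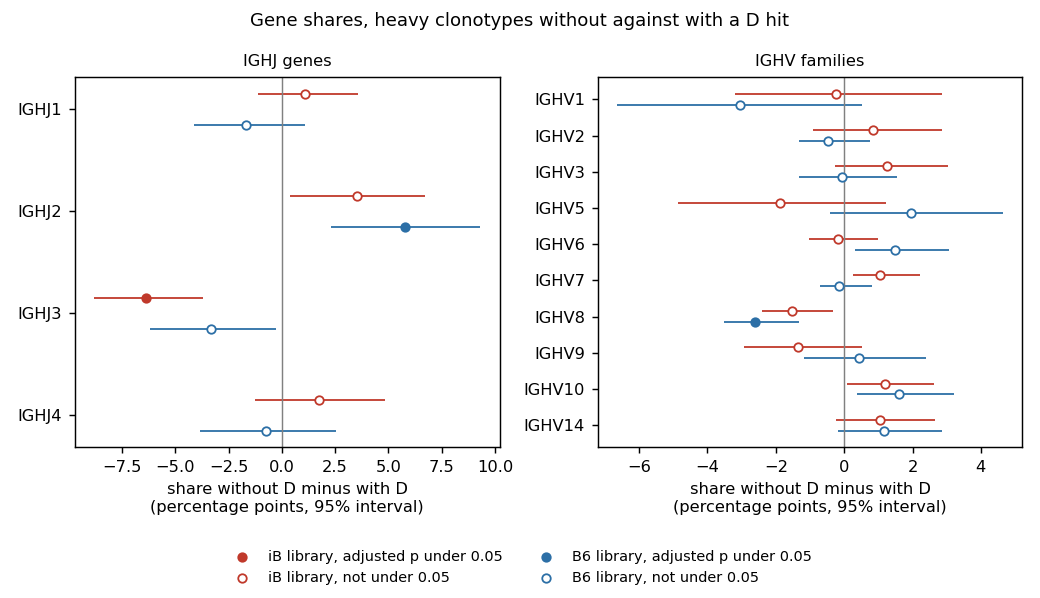
Difference in the share of each IGHJ gene and IGHV family between clonotypes without and with a D hit, in percentage points (horizontal axis), for both libraries. Lines are 95% Newcombe intervals, and filled circles passed Fisher's exact test with an adjusted p under 0.05. These are IGHJ3 in the iB library (-6.37), IGHJ2 in the B6 library (5.77) and IGHV8 in the B6 library (-2.60).

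Single V genes differed widely in how often the D hit was missing. The 40 IGHV genes that reached 50 clonotypes in both libraries were ranked. Their share without a D hit ran from 3.03% to 41.1% in the B6 library (median 12.2%) and from 4.32% to 25.7% in the iB library (median 13.2%). Ranked in the B6 library, the highest were IGHV1-85 (41.1%, 29.2 to 54.1, n = 56), IGHV6-6 (24.6%, n = 57), IGHV14-2 (23.5%, n = 81), IGHV10-3 (19.3%, n = 88) and IGHV5-17 (18.5%, n = 222). Read in the iB library, which took no part in the ranking, the same genes stood at 13.7%, 12.1%, 15.4%, 15.4% and 14.2%, of which 4 of 5 were above the iB median. With each clonotype counted as deposited, the iB interval of IGHV1-85 (6.81 to 25.7, n = 51) does not overlap that of the B6 library. This difference was found by ranking and was not tested. The B6 share of IGHV1-85 fell to 32.7% with near-identical clonotypes folded and to 32.4% weighted by reads. It stayed at 41.1% with D runs into J counted as a D and was 43.1% among J alignments free of mismatches. Intervals were not computed in these settings, so whether they overlap there is not known. The lowest in the B6 library were IGHV1-39 (3.03%, n = 99), IGHV8-8 (3.55%, 1.52 to 8.03, n = 141), IGHV8-12 (6.84%, n = 117), IGHV1-64 (7.75%, n = 258) and IGHV1-52 (7.89%, n = 114). In the iB library they stood at 7.84%, 4.32%, 11.4%, 17 of 170 clonotypes and 8.79%, all 5 below the iB median, and IGHV8-8 was the lowest of the 40 genes there. With D runs into J counted as a D, the iB shares of IGHV1-85, IGHV10-3, IGHV1-64 and IGHV8-12 were 5.88%, 8.55%, 5.29% and 2.44%. IGHV1-85 lies at chr12:116000028-116000321 and IGHV8-8 at chr12:115294066-115294362. Across the 40 genes, the shares in the 2 libraries had a Pearson r of 0.23 and a Spearman rho of 0.32. The share went down with the mean gap of the gene's clonotypes, with a Spearman rho of -0.67 in the iB library and -0.65 in the B6 library. The mean gap includes the members, and every clonotype with a gap below 5 is a member, so this direction goes with the rule. The correlations are descriptions across genes that share a library.

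Few members were common to both mice. Of 34 clonotypes with the same CDR3 nucleotide sequence, V and J in both libraries, 4 had no D hit in either, 0.397% of iB members (0.155 to 1.02) and 0.480% of B6 members (0.187 to 1.23). The clonotypes with a D hit were shared at 0.442% and 0.504%. The 4 shared members are shown with the V-to-J gap in capitals.
IGHV5-6 and IGHJ2: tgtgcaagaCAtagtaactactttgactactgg
IGHV14-4 and IGHJ3: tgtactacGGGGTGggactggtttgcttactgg
IGHV5-6 and IGHJ3: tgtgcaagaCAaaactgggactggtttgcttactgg
IGHV1-62-3 and IGHJ2: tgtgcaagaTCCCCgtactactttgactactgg
They had 140, 141, 45 and 2 reads in the iB library and 56, 1, 97 and 30 in the B6 library. The J alignment held a mismatch or an alignment gap in the first 3 of them. Before the exact J match, the first holds 6 bases of IGHD2-5, the second 5 bases and the third 8 bases of IGHD4-1, while the fourth holds 2 bases of a D segment. In the first, the run goes on into J through the common bases actac and so passes the limit of 8 bases. Whether reads passed between the libraries was not tested.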

How the data were processed

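The authors made heavy chain libraries by rapid amplification of cDNA ends, read them on a MiSeq instrument in pairs, and built the clonotype tables in MiXCR 3.0.13. The labels name the mm10 build. The deposited tables give a count of reads per clonotype, with no molecular identifiers described, so counts are not molecules. Light chain tables were not used. Members and lists were chosen with earlier results of these data known. The gap was taken from the deposited V end and J start. D and J segments were rebuilt from mismatch-free alignments, and perfect runs of D were searched as read and inverted. Shares were compared over clonotypes, each counted once, by Fisher's exact test (two-sided) with Newcombe intervals and Benjamini-Hochberg adjustment within the J genes, the V families and each pair of libraries (threshold 0.05). Clonotypes of equal gap were compared by the Mantel-Haenszel test. Single shares have 95% Wilson intervals, which cover counting error only. Depth was 909806 and 1383617 reads. Named items were every J gene, every V family with at least 20 members, the 5 highest and 5 lowest V genes in the B6 library, and sequences ranked by reads or gap. The searches for D runs and the sequences that show them were chosen after seeing the data. The tests were checked on simulated data. The searches were checked only for finding planted stretches of D, and how often a run arises in random bases was not simulated. The computations used Python 3.11.15, NumPy 2.4.6, pandas 2.3.3 and SciPy 1.17.1.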

Additional observations from a re-analysis of the deposited data

How the results depend on the processing

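The share of heavy clonotypes without a D hit, iB minus B6 (0.64 percentage points), kept its direction under 8 of 12 alternatives. It was 1.57 with near-identical clonotypes folded, past the threshold (exact p = 0.0047), and 1.5 with D hits from score 40 (exact p = 0.066). It turned to -4.22 at equal gap, past the threshold of the Mantel-Haenszel test, to -0.65 with a D run of 8 bases counted as a D (exact p = 0.212), to -2.11 with a run into J counted (exact p = 1.2e-05) and to -1.15 among clonotypes with a J alignment free of mismatches and gaps (exact p = 0.041). The last 3 settings, and the other lengths of D run, were chosen after seeing the data. The number of J shares that passed (2 of 8) became 1 with folding, 0 at equal gap, 6 with D hits from score 40, 3 with D runs counted and 0 with runs into J counted. Settings that count D runs are tied to the J gene, so the J counts under them cannot decide whether J use differed. The number of V families that passed (1 of 20) became 2 with folding, 5 at equal gap, 0 with D hits from score 40, and 2 each with D runs counted, with runs into J counted and with J alignments free of mismatches. Weighting by reads gives no test and so no such counts.

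Some directions turned, in percentage points without minus with D. Comparisons of members at equal gap, here and below, leave out those with a gap below 5. At equal gap, IGHJ4 was -2.19, IGHV1 0.85, IGHV2 -2.31, IGHV3 -0.26, IGHV5 11.2, IGHV7 -1.08, IGHV14 -0.91 and the stop codon share 0.42 in the iB library, and IGHV6 was -0.12 in the B6 library. With D hits from score 40, IGHJ4 was -2.64, IGHV2 -0.17, IGHV5 0.23, IGHV6 0.047 and IGHV14 -0.20 in the iB library, and IGHJ4 was 0.53, IGHV3 0.20, IGHV7 0.18 and IGHV9 -0.28 in the B6 library. With D runs counted, iB IGHJ4 was -2.06 and iB IGHV6 0.24. With runs into J counted, IGHJ1 was -0.47, IGHJ3 0.064, IGHJ4 -3.80, IGHV1 0.84 and IGHV6 0.42 in the iB library, and IGHJ3 was 0.73 and IGHV3 0.14 in the B6 library. With J alignments free of mismatches, iB IGHJ4 was -1.26 and iB IGHV6 0.22. B6 IGHJ4 was 0.60 with folding, and B6 IGHV3 was 0.075 with at least 2 reads and 0.078 with at least 5. Weighted by reads, iB IGHV2 was -1.57 and iB IGHV5 0.23. The share without a C hit in the iB library was -0.0056 weighted by reads, -0.16 with a unique best V hit and -0.30 at equal gap, and in the B6 library it was 0.12 at equal gap.

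Sizes moved in descriptions that kept their direction. The mean gap, without minus with D, was -9.76 nucleotides in the iB library and -10.7 in the B6 library weighted by reads, -8.33 and -9.20 with D hits from score 40, -9.73 and -10.6 with D runs counted, and -9.54 and -10.4 with runs into J counted. The mean CDR3 length differed by -0.15 and -0.64 amino acids at equal gap, -2.35 and -2.95 with D hits from score 40, -3.04 and -3.80 with D runs counted, -3.36 and -3.84 with runs into J counted, and -3.23 and -3.85 with J alignments free of mismatches. The tyrosine share in the iB library was -2.43 at equal gap, -3.68 with D hits from score 40, -2.58 with D runs counted and -3.44 with runs into J counted, and in the B6 library -4.26 with D hits from score 40 and -3.52 with runs into J counted. The share of members with a D run before J was 27.3% and 15.4% at 7 bases, 15.8% and 9.24% at 9 bases and 8.84% and 5.40% at 10 bases (iB and B6). With runs into J allowed it was 42.9% and 22.2%, 31.3% and 12.6%, and 20.6% and 8.16%. Shares of single V genes moved too. In the iB library, IGHV8-12 (11.4%) was 4.88% with D runs counted, 2.44% with runs into J counted and 3.33% with J alignments free of mismatches, and IGHV8-8 (4.32%) was 2.16% in the first 2 of these settings and 0.909% in the last. With runs into J counted, iB IGHV1-85 was 5.88%, iB IGHV10-3 8.55%, iB IGHV1-64 5.29%, B6 IGHV1-52 4.39%, B6 IGHV8-12 4.27% and B6 IGHV8-8 1.42%. B6 IGHV6-6 was 15.6% with J alignments free of mismatches, and IGHV1-39 was 14.0% (iB) and 5.45% (B6) weighted by reads. The causes of these changes were not tested.

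With 1 library per group there is no replicate to leave out, and the spread between mice is unknown. No paired analysis was possible because each group has 1 heavy library. Equal read numbers were tried for the share without a D hit only. D segments trimmed below 8 bases cannot be told from added bases by these searches, and the depth of the tables does not change that. V ends were taken as deposited.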
